A study of Mus musculus with 36 samples.

Results

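The genes described here are 10 members of the growth hormone and STAT5 axis of mouse liver: the receptor gene Ghr, the kinase gene Jak2, the transcription factor genes Stat5a and Stat5b, the feedback inhibitor genes Cish and Socs2, the secreted products Igf1 and Igfals, and the transcription factor genes Bcl6 and Onecut1. They were chosen by name, as every probe other than a control whose gene name in the array files was 1 of these symbols. The rule found 23 probes for 10 genes, out of 37325 genes on the array, and all 10 genes were among the 24251 that were bright enough to test, with a signal well above background in 5 or more mice of 1 group.

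Growth hormone is released by the pituitary in pulses and binds its receptor on hepatocytes, where the receptor-bound kinase JAK2 phosphorylates STAT5 proteins, which then enter the nucleus and bind DNA. STAT5 raises transcription of Cish and Socs2, whose proteins damp the same receptor, and of Igf1 and Igfals, whose proteins circulate together as a growth-promoting complex. BCL6 is a repressor that binds many of the same DNA sites as STAT5, and the pattern of growth hormone pulses, which differs between the sexes, sets much of the sex bias of liver gene expression in rodents.

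RNA was measured in the livers of 36 male C57Bl/6J mice, 1 single-colour Agilent array per mouse, in 6 groups of 6. AAKO mice lack ATGL, the lipase that Pnpla2 encodes and that starts the breakdown of stored fat, in their white fat, and CTRL mice are their controls; the promoter that drives the deletion and the age of the mice are not given in the sources used here, and since the deletion is in fat, the level of Pnpla2 in liver does not check the genotype labels. Mice of each genotype were fed freely, fasted for 24 h, or fed and gavaged once at Zeitgeber time 10 with CL316243 (3 mg/kg in 0.5% carboxymethyl cellulose), which activates beta 3 adrenergic receptors and so drives fat breakdown in adipocytes. Tissue was taken from every group at Zeitgeber time 16, during the dark hours, and all groups had the same standard diet and housing. The comparisons ask how the liver responds to fasting and to adipocyte lipolysis, and what becomes of that response when fat cells lack the lipase. The fed groups belong to experiment 2 and the other groups to experiment 1, so a difference from fed mice cannot be told apart from a difference between experiments, and gavage is stated for the CL316243 groups only. Below, words such as raised, lowered, rose or fell with fasting or CL316243 mean only higher or lower than in fed mice. Each value is a log2 signal from which the 75th percentile of its array was subtracted, so that 0 is the brightness of that percentile. Errors are SD over mice beside group means and SE beside log2 fold changes. Adjusted p-values come from limma with Benjamini-Hochberg adjustment over all 24251 genes, and a gene is called at an adjusted p under 0.05.

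Between 58.5% and 65.7% of probes were well above background on an array, and the 8 hepatocyte markers were bright in every group, with a mean over the markers between 8.04 and 8.61 on each array. Of these 8, 4 were called higher and none lower in AAKO than CTRL after CL316243, where 24.7% of all genes were called. When fasted, 3 were higher and 3 lower (49.3% of all genes called). The fasted CTRL mouse of replicate 2 stood apart from its group: on the first principal component of all genes (41.9% of the variance) it lay at 81.3, against 16.8 to 29.0 for the other 5 CTRL fasted mice and 103 to 111 for AAKO fasted mice. Of 5 neutrophil markers 3 were called higher in AAKO fasted than in CTRL fasted livers, where 49.3% of all genes were called. The mean over the list lay between -2.53 and 1.63 in AAKO fasted and between -4.80 and 0.87 in CTRL fasted mice. Of 6 Kupffer cell markers 4 were called lower with CL316243 than fed in CTRL mice, where 23.3% of all genes were called. List means lay between -0.43 and 1.39 with CL316243, against 0.87 to 2.27 when fed. The fall was not particular to Kupffer cells or to CTRL. In the same comparison 3 of 4 sinusoidal endothelium and 3 of 5 stellate cell markers were lower and none higher. Of the 8 hepatocyte markers 3 were lower and 1 higher. In AAKO mice 5 of the 6 Kupffer cell markers were lower with CL316243 than fed, where 31.4% of all genes were called. Whether these cells had a part in the results below was not tested, and in whole tissue fewer cells of a type and less RNA per cell cannot be told apart.

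Promoter sequences are shown first because STAT5 and BCL6 act at such sites. The STAT5 motif TTCNNNGAA, which is its own reverse complement and so reads alike on both strands, was searched in RefSeq promoters of GRCm38.p6, each 300 bases long from 250 before the transcription start to 50 after it. It was found in 8.30% of 32851 promoters, and at least 2 copies were found in 0.457%. Promoters of 9 of the 10 members matched by symbol, all but Socs2, and 5 of their 15 promoters, in Cish, Bcl6 and Igfals, held the motif. Of these, 3 are printed 5′ to 3′ on the strand of the gene, from 250 bases before the start to 30 after it, with the motif in capitals. They are Cish at chr9:107296409-107296688 on the plus strand, the second listed promoter of Bcl6 at chr16:23981254-23981533 on the minus strand, and the second listed promoter of Igfals at chr17:24877981-24878260 on the plus strand.
Cish: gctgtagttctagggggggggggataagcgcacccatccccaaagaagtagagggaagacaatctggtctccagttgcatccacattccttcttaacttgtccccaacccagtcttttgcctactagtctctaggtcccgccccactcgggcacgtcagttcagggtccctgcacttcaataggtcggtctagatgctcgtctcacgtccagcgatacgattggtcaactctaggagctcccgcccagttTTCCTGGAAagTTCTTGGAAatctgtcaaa
Bcl6, promoter 2: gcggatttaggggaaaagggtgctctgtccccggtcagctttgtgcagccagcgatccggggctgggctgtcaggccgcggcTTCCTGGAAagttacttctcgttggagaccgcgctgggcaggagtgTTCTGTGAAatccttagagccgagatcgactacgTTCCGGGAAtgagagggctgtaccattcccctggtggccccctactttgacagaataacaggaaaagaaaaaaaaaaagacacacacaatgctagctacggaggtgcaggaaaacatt
Igfals, promoter 2: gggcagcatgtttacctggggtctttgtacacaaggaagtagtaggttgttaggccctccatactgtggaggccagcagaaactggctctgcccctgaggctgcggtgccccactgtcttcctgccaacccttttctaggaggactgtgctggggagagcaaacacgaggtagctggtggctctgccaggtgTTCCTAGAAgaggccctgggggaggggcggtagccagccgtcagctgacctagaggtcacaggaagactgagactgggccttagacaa
Cish held 2 copies that begin at positions 1 and 12 from the start, separated by a pair of bases. Bcl6 promoter 2 held 3 copies, which begin at positions -168, -122 and -88 from the start, and 11 of all promoters held 3 or more. Igfals promoter 2 held 1 copy at position -58. The other 10 member promoters, those of Igf1 and Onecut1 among them, did not hold these letters in this window. A match is a description of the sequence and says nothing of binding in these livers.

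In fed mice none of the 10 genes differed between genotypes by limma (0.0783% of all genes called, 19 genes, with 1644 at an unadjusted p under 0.05). In fasted mice 5 of the 10 differed between AAKO and CTRL: Socs2, Stat5b and Jak2 were higher and Ghr and Igfals lower, against 49.3% of all genes called. After CL316243 2 of the 10 differed between genotypes, Socs2 higher and Igfals lower in AAKO, against 24.7% of all genes. Fasting changed 5 of the 10 in CTRL livers (43.3% of all genes) and 7 of the 10 in AAKO livers (63.5%). CL316243 changed 2 of the 10 in CTRL (23.3%) and 4 of the 10 in AAKO (31.4%). Fasting and CL316243 differed from each other for 4 of the 10 in CTRL (36.8%) and 6 of the 10 in AAKO (59.9%). The genotype difference itself changed for 1 gene between fasted and fed mice (33.9% of all genes), 1 gene between CL316243 and fed mice (10.9%), and 2 genes between fasted and CL316243 mice (32.3%). Set against those shares of all genes, the counts are read as nothing particular to the axis, and the members are described below 1 at a time.

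**Figure D1:**
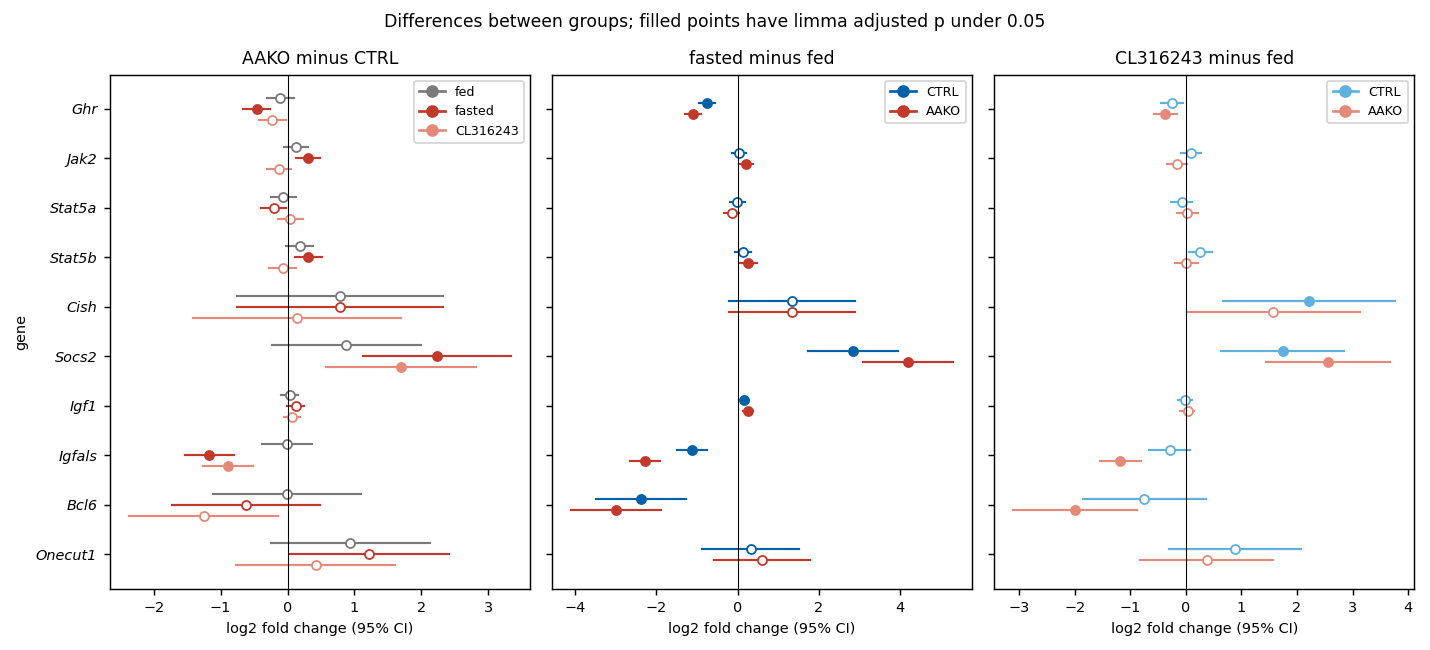
Log2 fold change of each gene (points) with its 95% confidence interval (lines) for AAKO against CTRL in 3 conditions, for fasting against feeding, and for CL316243 against feeding; filled points passed an adjusted p under 0.05. Socs2 shows the highest estimate with fasting (4.19 in AAKO), Igfals and Bcl6 lie on the lower side, and Stat5a has no filled point.

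The receptor gene fell with fasting, and lay lower in fasted mice without adipose lipase. Ghr lay between 5.34 and 5.67 in CTRL fed livers (median 5.48) and between 4.55 and 4.92 in CTRL fasted livers (median 4.73). In AAKO mice it lay between 5.17 and 5.62 when fed (median 5.36) and between 3.84 and 4.47 when fasted (median 4.41). By this brightest probe of Ghr, every fasted mouse was below every fed mouse of its genotype, and every AAKO fasted mouse was below every CTRL fasted mouse. The log2 fold change with fasting was -0.75 ± 0.10 in CTRL (adjusted p = 2.36e-07) and -1.1 ± 0.10 in AAKO (adjusted p = 2.54e-11). Between genotypes it was -0.46 ± 0.10 in fasted mice (adjusted p = 0.000251). The test that the fasting response differed between genotypes gave -0.35 ± 0.14 with an adjusted p of 0.0501, at the edge of the threshold. It passed with 5 other settings for the same probe and in 8 fits that left out 1 mouse (adjusted p from 0.0204 to 0.0491). Ghr was lower after CL316243 than fed in AAKO (-0.37 ± 0.10, adjusted p = 0.00462), an estimate that was -0.14 within wash batch 2 (adjusted p = 0.566). Of the AAKO CL316243 mice only replicates 3 and 4 were in that batch. The CTRL estimate of -0.25 ± 0.10 did not pass (adjusted p = 0.0652).

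By their brightest probes the kinase and the STAT5 genes moved little. Jak2, the receptor-bound kinase, lay between -1.35 and -0.86 in CTRL fasted and between -1.08 and -0.61 in AAKO fasted livers, with overlapping groups and a log2 fold change of 0.30 ± 0.09 (adjusted p = 0.00442). Stat5b, the more abundant STAT5 gene of liver in textbook accounts, lay between 2.47 and 2.65 in CTRL fasted and between 2.54 and 3.17 in AAKO fasted livers (0.31 ± 0.10, adjusted p = 0.0101). These are 1.23-fold and 1.24-fold, and neither was called within a single wash batch (adjusted p between 0.0633 and 0.155). For both genes the genotype difference was larger when fasted than after CL316243, by 0.43 ± 0.12 for Jak2 (adjusted p = 0.0075) and 0.39 ± 0.14 for Stat5b (adjusted p = 0.0359). Within wash batches 1 and 2 neither was called (adjusted p = 0.166 and 0.132 for Jak2, 0.15 and 0.411 for Stat5b). The Stat5b value also lost its call without the filter on dim genes (adjusted p = 0.0603), when slides entered the fit (0.0787), with the mean of its probes (0.16, adjusted p = 0.598) and in 10 fits that left out 1 mouse: AAKO fasted replicate 1, 2 or 3, CTRL fasted replicate 4, CTRL CL316243 replicate 4, 5 or 6, or AAKO CL316243 replicate 2, 4 or 6 (adjusted p from 0.0544 to 0.0719). Stat5a, by its brightest probe, had group means between 3.26 and 3.48 and was called in no comparison.

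**Figure D2:**
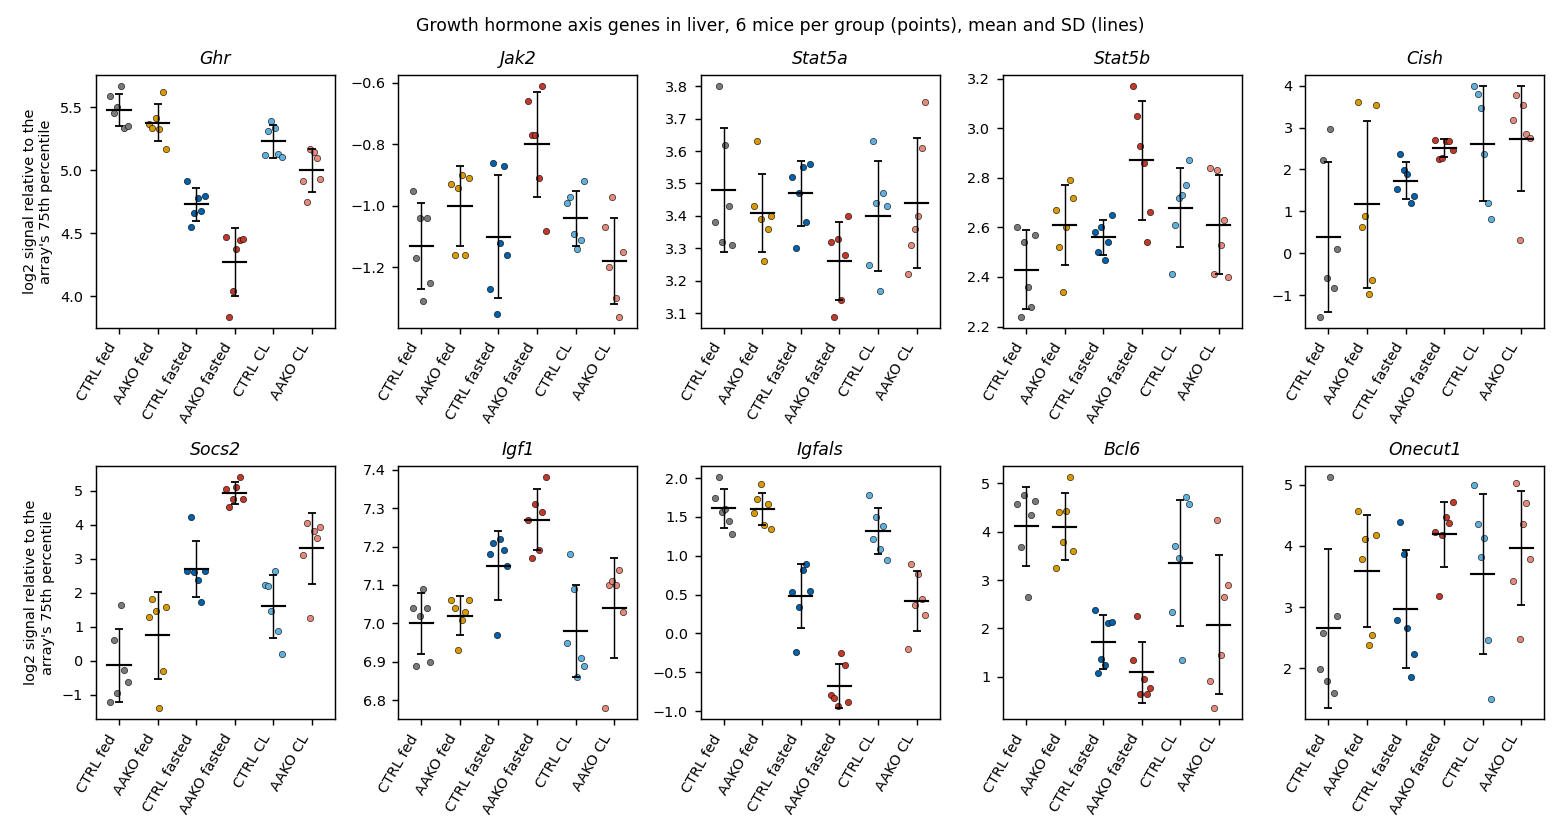
Log2 signal of the 10 genes in each of the 6 groups; points are mice, the wide bar is the mean and the whiskers are 1 SD (n = 6). Ghr and Igfals step down from fed to fasted mice with little spread, while Cish runs from -1.51 to 3.61 over the fed mice of both genotypes.

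The feedback inhibitor Socs2, whose protein marks the receptor for degradation, rose with fasting and was higher in AAKO than in CTRL mice. It lay between -1.21 and 1.63 in CTRL fed livers (median -0.46) and between 1.72 and 4.21 in CTRL fasted livers (median 2.62). AAKO livers held between -1.39 and 1.82 when fed (median 1.37) and between 4.53 and 5.39 when fasted (median 4.91). The fasted mice of each genotype lay above its fed mice, and the fasted genotypes did not overlap. Fasting raised Socs2 by 2.84 ± 0.54 in CTRL (7.15-fold, adjusted p = 7.09e-05) and by 4.19 ± 0.54 in AAKO (18.3-fold, adjusted p = 5.11e-08). Between genotypes the difference was 2.23 ± 0.54 when fasted (4.71-fold, adjusted p = 0.000941), and 2.54 without the CTRL fasted mouse of replicate 2, which held the highest value of its group, 4.21. The difference of the fasting responses, 1.35 ± 0.77, did not pass (adjusted p = 0.181). Within wash batch 1 the CTRL fasting value was 1.89 and not called (adjusted p = 0.0522), and the difference of the responses was 2.87 and called (adjusted p = 0.0429).

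After CL316243 Socs2 lay between 0.21 and 2.65 in CTRL (median 1.82) and between 1.26 and 4.05 in AAKO livers (median 3.70). The 2 groups overlapped through 1 mouse, AAKO replicate 3 at 1.26, while the other 5 AAKO mice lay at 3.12 or above. The genotype difference was 1.70 ± 0.55 (3.24-fold, adjusted p = 0.0212) and 2.17 without that mouse (adjusted p = 0.0026). It lost the call within wash batch 1 (1.78, adjusted p = 0.0795) and batch 2 (1.23, adjusted p = 0.347), and when CTRL replicate 5 or 6 or AAKO replicate 4 was left out (adjusted p between 0.0509 and 0.0638). Against fed mice CL316243 raised Socs2 by 1.74 ± 0.54 in CTRL (adjusted p = 0.0187) and 2.56 ± 0.55 in AAKO (adjusted p = 0.000489). In wash batch 2 the AAKO estimate was 0.97 (adjusted p = 0.445). That batch held only replicates 3 and 4 of the AAKO CL316243 mice, and replicate 3 is the low mouse at 1.26. The CTRL estimate was called in neither batch (adjusted p = 0.192 and 0.0781) nor without CTRL fed replicate 1 or CTRL CL316243 replicate 4 (adjusted p = 0.0569 and 0.0544).

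Cish, which encodes a second inhibitor of the STAT5 pathway, had the widest spread of the members between fed mice of the same group. In CTRL fed livers it lay at -1.51, -0.83, -0.60, 0.11, 2.22 and 2.96, and in AAKO fed livers at -0.98, -0.63, 0.62, 0.89, 3.53 and 3.61. Within each fed group a pair of mice was thus well above the other 4. The within-group SD over the fed mice was 1.90, larger than that of 99.9% of tested genes. In fasted mice it was 0.35, larger than that of 68.1% of genes, and the values closed up to between 1.2 and 2.38 in CTRL and between 2.25 and 2.71 in AAKO. After CL316243 the SD was 1.31, with values from 0.83 to 3.99 in CTRL and from 0.32 to 3.77 in AAKO. The mean absolute deviation from the group median fell from 1.37 fed to 0.36 fasted in CTRL (exact permutation test over 924 splits, two-sided, p = 0.0455) and from 1.5 to 0.18 in AAKO (exact permutation test, p = 0.0346). Neither passed adjustment over the 40 such tests of spread run (adjusted p = 0.519 for both), and these tests were chosen after the values were seen. Other members also spread widely. The SD over fed mice was 1.19 for Socs2 and 0.75 for Bcl6, larger than that of 99.6% and 97.1% of genes. After CL316243 that of Bcl6, 1.37, was larger than that of Cish. In fasted mice Socs2 (0.62), Onecut1 (0.78) and Bcl6 (0.59) spread more than Cish.

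With this spread Cish passed in 1 comparison only, CL316243 against fed in CTRL (2.22 ± 0.76, adjusted p = 0.0319), and that call was lost without CTRL fed replicate 1, 3, 5 or 6 or CTRL CL316243 replicate 1, 2 or 3 (adjusted p from 0.0534 to 0.101), without the filter on dim genes (adjusted p = 0.051) and when slides entered the fit (adjusted p = 0.053). Within wash batch 1 the same difference was 0.93 (adjusted p = 0.506) and within batch 2 it was 3.51 (adjusted p = 0.0465). The genotype difference in fasted mice, 0.78 ± 0.76, did not pass (adjusted p = 0.418, 95% interval -0.76 to 2.33).

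The 2 secreted products differed from each other. Igfals encodes the acid-labile subunit, which holds IGF1 in its circulating complex. It lay between 1.28 and 2.01 in CTRL fed livers (median 1.58) and between -0.24 and 0.90 in CTRL fasted livers (median 0.54). In AAKO livers it lay between 1.35 and 1.92 when fed (median 1.61) and between -0.93 and -0.25 when fasted (median -0.81). No fasted mouse overlapped the fed mice, and every AAKO fasted mouse was below every CTRL fasted mouse, the nearest being CTRL replicate 2 at -0.24. Between fasted genotypes the log2 fold change was -1.17 ± 0.18 (adjusted p = 2.78e-06). Igfals fell with fasting by 1.13 on the log2 scale in CTRL (SE 0.18, adjusted p = 5.91e-06) and by 2.28 in AAKO (SE 0.18, 4.87-fold, adjusted p = 1.61e-12). The fasting response was stronger in AAKO by an interaction of -1.16 ± 0.26 (adjusted p = 0.000649), with -1.41 within wash batch 1 (adjusted p = 0.00583) and -0.90 within batch 2 (adjusted p = 0.137).

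After CL316243 Igfals lay between 0.94 and 1.78 in CTRL and between -0.20 and 0.89 in AAKO livers, so that every AAKO mouse was below every CTRL mouse. The log2 fold change between genotypes was -0.89 ± 0.18 (adjusted p = 0.000406), with -0.88 within wash batch 1 (adjusted p = 0.0131) and -0.84 within batch 2 (adjusted p = 0.123). Igfals was lower with CL316243 than fed in AAKO (-1.18 ± 0.18, adjusted p = 7.69e-06), with -0.98 within wash batch 2 (adjusted p = 0.06). The CTRL estimate did not pass (-0.29 ± 0.18, adjusted p = 0.266). The difference of the 2 responses was called (-0.89 ± 0.26, adjusted p = 0.0213), though not within either batch alone (adjusted p = 0.204 and 0.318). Of the AAKO CL316243 mice only replicates 3 and 4 were in wash batch 2.

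Igf1, the main endocrine mediator of growth hormone action, was close to constant by its brightest probe. Group means lay between 6.98 and 7.27, and the SD within fed groups, 0.07, was larger than that of 1.60% of tested genes. Igf1 was 0.16 ± 0.06 higher in fasted than fed CTRL mice (adjusted p = 0.0399) and 0.25 ± 0.06 higher in AAKO mice (adjusted p = 0.000872), which is 1.11-fold and 1.19-fold. The CTRL call was lost within wash batch 1 (0.11, adjusted p = 0.559), without a filter on dim genes, with the replicate block, and in 7 fits that left out 1 mouse, CTRL fed replicate 2 or 6 or CTRL fasted replicate 1, 2, 4, 5 or 6 (adjusted p from 0.0607 to 0.0985).

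Other probes of Igf1 gave other values. To identify the probes that disagree, for Igf1 and Stat5a, the first 30 bases of each 60-base probe are printed 5′ to 3′, in lower case with no part marked.
Igf1, probe 1: cgcaggatcctttgctgcttgagcaacctg
Igf1, probe 2: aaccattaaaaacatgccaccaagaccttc
Igf1, probe 3: taaaatagttgagtaaaatttgccactgat
Stat5a, probe 1: tggacagtctcgacgcccgcctctccccac
Stat5a, probe 2: ctctctgaaggaagcagagggatgcttttt
On mm9, as the files give them, Igf1 probe 1 is at chr10:87393516-87393575, probe 2 at chr10:87378456-87378515 and probe 3 at chr10:87325382-87325441, all on the plus strand. Exon annotation for these probes was not used here. Probe 3 lay between -1.73 and 2.93 in CTRL fed livers (median -1.25), between 0.45 and 2.83 in CTRL fasted livers (median 1.15) and between 1.84 and 2.70 after CL316243 (median 2.23). It rose with fasting in CTRL (1.80 ± 0.69, adjusted p = 0.0334) and AAKO (2.41 ± 0.69, adjusted p = 0.00284) and with CL316243 in CTRL (2.78 ± 0.69, adjusted p = 0.00344). Probe 2 had an SD of 0.60 in CTRL fed and 1.04 in AAKO fed mice and passed in no comparison. Which transcripts the 3 probes detect was not tested.

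**Figure D3:**
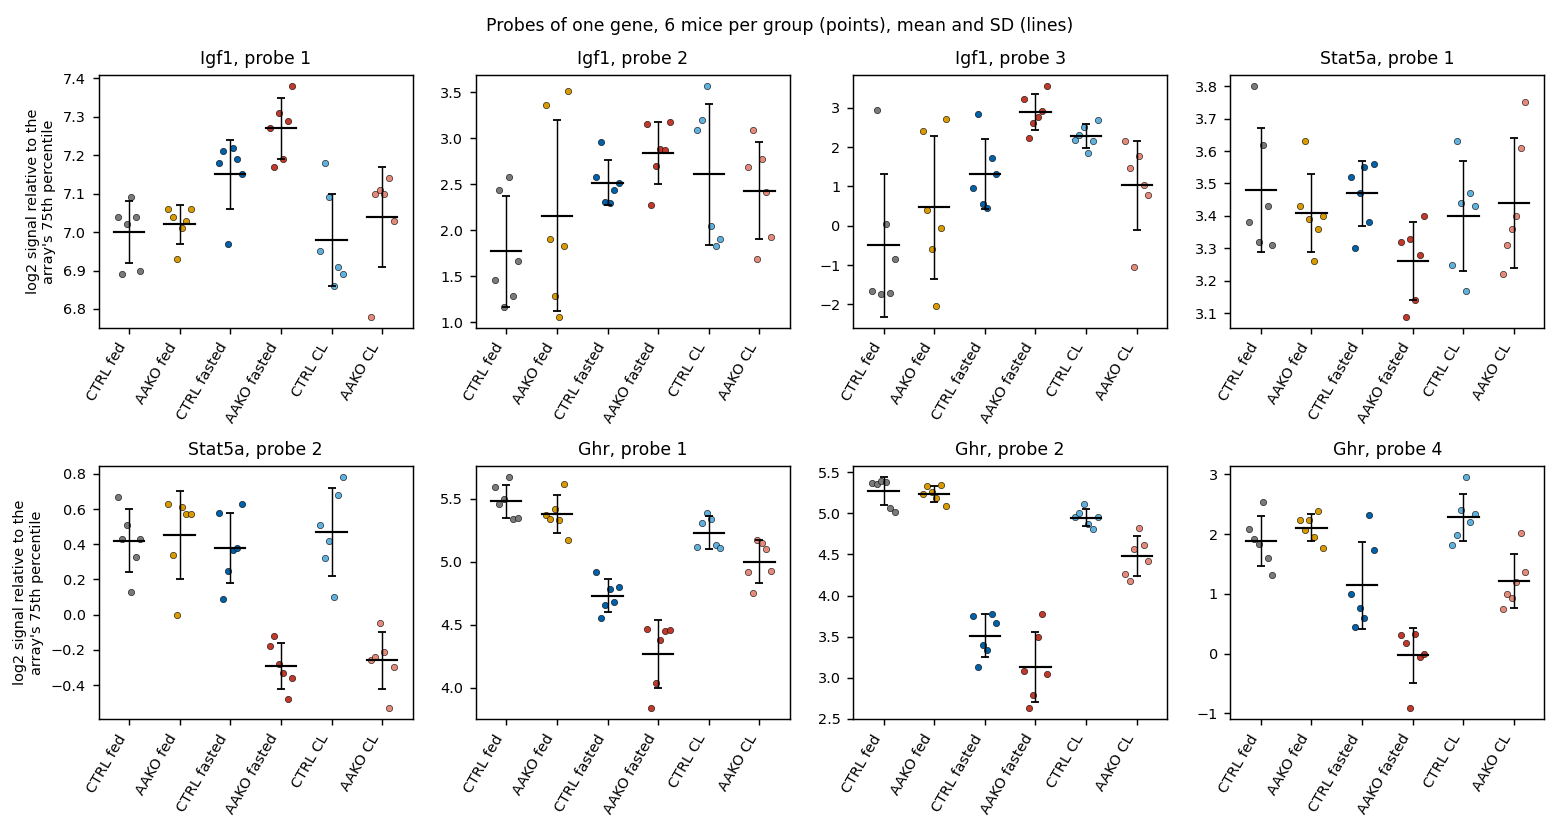
Log2 signal of several probes of Igf1, Stat5a and Ghr in the 6 groups; points are mice, the wide bar is the mean and the whiskers are 1 SD (n = 6). Igf1 probe 1 stays between 6.78 and 7.38 while probe 3 runs from -2.05 to 3.55, and Stat5a probe 2 lies below 0 in every fasted or CL316243-treated AAKO mouse and above 0 in all CTRL mice.

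The probes of Stat5a also disagreed. Probe 2, at chr11:100746373-100746432 on mm9, is the dimmer one, and probe 1 lies at chr11:100745240-100745299. In fasted livers probe 2 lay between 0.09 and 0.63 in CTRL and between -0.48 and -0.12 in AAKO mice. After CL316243 it lay between 0.10 and 0.78 in CTRL and between -0.53 and -0.05 in AAKO. The genotypes did not overlap in either condition, with log2 fold changes of -0.68 ± 0.11 (adjusted p = 1e-05) and -0.72 ± 0.11 (adjusted p = 2.01e-05), while in fed mice the estimate was 0.04 ± 0.11 (adjusted p = 0.981). The interactions with fasting (-0.71 ± 0.16, adjusted p = 0.000839) and with CL316243 (-0.76 ± 0.16, adjusted p = 0.00196) were called for that probe, and neither was called for probe 1 (-0.14 ± 0.13 and 0.10 ± 0.13).

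For Ghr the 4 probes shared the direction of fasting and differed in its size. Probe 2 fell by 1.76 on the log2 scale in CTRL and by 2.11 in AAKO, against 0.75 and 1.1 for the brightest probe. In fasted mice probe 2 lay between 3.13 and 3.78 in CTRL and between 2.63 and 3.77 in AAKO, so the genotypes overlapped. The dimmest, probe 4, fell by 0.74 in CTRL and by 2.14 in AAKO, and its genotype difference was called both when fasted (-1.17 ± 0.26, adjusted p = 0.000315) and after CL316243 (-1.11 ± 0.26, adjusted p = 0.00163). After CL316243 the genotype difference of the brightest probe did not pass (-0.23 ± 0.10, adjusted p = 0.0993), though it was called with quantile normalization (adjusted p = 0.0254) and in the authors' table (adjusted p = 0.0219), and probe 2 was called (-0.46, adjusted p = 0.0147). Socs2 probes 1 and 2, at chr10:94875066-94875125 and chr10:94875468-94875527 on mm9, gave genotype differences when fasted (2.23 and 2.12), whereas probes 3 and 4, at chr10:94850747-94850806 and chr10:94848005-94848064, gave 0.71 and 0.33, which did not pass. Both probes of Onecut1 passed in no comparison.

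Bcl6, the repressor that competes with STAT5 for DNA, fell with fasting in both genotypes. It lay between 2.66 and 4.75 in CTRL fed livers (median 4.46) and between 1.09 and 2.38 in CTRL fasted livers (median 1.74). In AAKO livers it lay between 3.24 and 5.12 when fed (median 4.10) and between 0.64 and 2.26 when fasted (median 0.86). Fed and fasted mice did not overlap. The log2 fold change was -2.39 ± 0.54 in CTRL (5.25-fold lower, adjusted p = 0.000558) and -2.99 ± 0.54 in AAKO (7.96-fold lower, adjusted p = 1.54e-05). Within wash batch 1 the CTRL value was -1.83 (adjusted p = 0.126), and the dimmer Bcl6 probe 2 was not called in that comparison. CL316243 lowered Bcl6 in AAKO (-1.99 ± 0.55, adjusted p = 0.0053), with -2.74 within wash batch 1 (adjusted p = 0.0217) and -0.91 within batch 2 (adjusted p = 0.493). Batch 2 held only replicates 3 and 4 of the AAKO CL316243 mice. The CTRL estimate after CL316243, -0.75 ± 0.54, did not pass (adjusted p = 0.349). The genotypes were not called apart after CL316243 (-1.25 ± 0.55, adjusted p = 0.0941), and without AAKO replicate 3, which lay at 4.23 against 0.36 to 2.90 in the other 5 AAKO mice, the value was -1.72 (adjusted p = 0.0152). By probe 2 the genotypes were alike after CL316243, with means of -2.21 ± 1.07 in CTRL and -2.13 ± 1.91 in AAKO. In fed mice the means of that probe were -0.34 ± 1.40 and -0.14 ± 0.89.

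Onecut1, which encodes the liver factor HNF6 and is induced by growth hormone, also spread widely within groups, with an SD of 1.12 over fed mice that was larger than that of 99.5% of tested genes. It lay between 1.60 and 5.12 in CTRL fed livers (median 2.28), between 2.38 and 4.57 in AAKO fed livers (median 3.95), and between 3.18 and 4.71 in AAKO fasted livers (median 4.30). It was called in no comparison. The genotype estimate in fasted mice was 1.22 ± 0.58 (adjusted p = 0.0824), and 1.51 (adjusted p = 0.0338) without the CTRL fasted mouse of replicate 2, which lay at 4.39.

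The same mice were high or low for several members. Among fed CTRL mice the 2 with the highest Cish, replicates 2 and 4, also had the 2 highest Socs2 values (0.60 and 1.63) and the 2 lowest Bcl6 values (3.69 and 2.66), while for Onecut1 replicate 4 was highest (5.12) and replicate 2 (2.57) lay below replicate 6 (2.85). Among fed AAKO mice the 2 with the highest Cish, replicates 1 and 6, had the 2 highest Onecut1 values (4.57 and 4.17) and the 2 lowest Bcl6 values (3.24 and 3.59), while for Socs2 replicates 6 (1.58) and 1 (1.27) lay below replicate 2 (1.82), and replicate 1 also below replicate 3 (1.46). After CL316243 the AAKO mouse of replicate 3 had the lowest Cish (0.32), Socs2 (1.26) and Onecut1 (2.47) and the highest Bcl6 (4.23) of its group.

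These relations were measured over all 36 mice as correlations of deviations from the group mean, for the 45 pairs of members, with 100000 permutations of mice within groups and Benjamini-Hochberg adjustment over the 45. Of the 45 pairs 9 had an adjusted p under 0.05, and 6 of those 9 were all the pairs among Cish, Socs2, Onecut1 and Bcl6. The remaining pairs were negative relations of Stat5b. Its r was -0.50 with Socs2 (permutation test, adjusted p = 0.0099), -0.45 with Onecut1 (adjusted p = 0.0337) and -0.45 with Igfals (adjusted p = 0.0348). By rank correlation Stat5b passed with Socs2 (adjusted p = 0.00572) but not with Onecut1 (0.0686) or Igfals (0.0735). Cish and Onecut1 had r = 0.80 (permutation p = 1e-05, the smallest these permutations can give, adjusted p = 0.00015) and rho = 0.78 (permutation p = 1e-05). Without the 2 mice farthest from the median of Cish r was 0.75, and it was 0.77 and 0.83 within the 2 wash batches. Cish and Socs2 had r = 0.79 (permutation p = 2e-05, adjusted p = 0.000225) and rho = 0.70 (permutation p = 0.0001), with 0.72 without the 2 farthest mice and 0.84 and 0.74 within batches. Both relations were positive in every condition, with r = 0.86 for Onecut1 and 0.82 for Socs2 over the 12 fasted mice.

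Bcl6 ran the other way. Its r with Cish was -0.67 (permutation p = 5e-05, adjusted p = 0.000375) and rho was -0.72 (permutation p = 1e-05), with -0.62 without the 2 farthest mice and -0.56 and -0.83 within batches. Over fed, fasted and CL316243 mice r was -0.88, -0.64 and -0.69. Bcl6 with Onecut1 gave r = -0.72 and with Socs2 r = -0.67. In the fed mice Cish values left a gap between 0.89 and 2.22, so r over fed mice describes mainly the mice on its 2 sides. The values of 1 mouse come from 1 array and share its RNA and scaling.

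**Figure D4:**
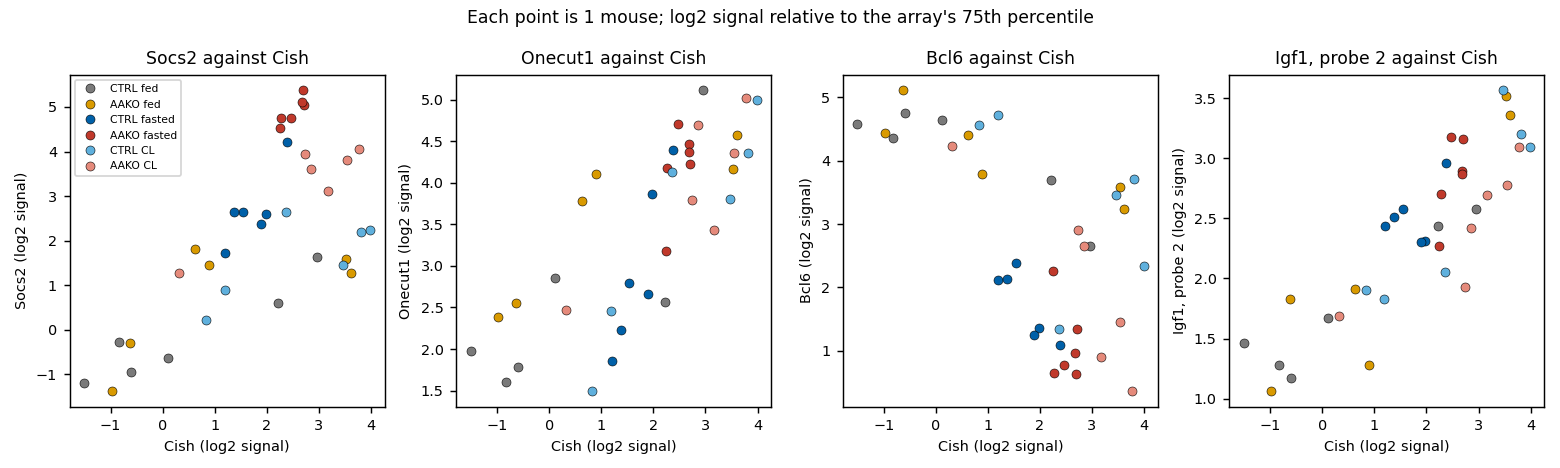
Log2 signal of Socs2, Onecut1, Bcl6 and Igf1 probe 2 against that of Cish; each point is 1 mouse, coloured by group. Socs2, Onecut1 and Igf1 probe 2 run upward with Cish (within-group r of 0.79, 0.80 and 0.87) and Bcl6 downward (-0.67).

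The other probes of the members were set against Cish in the same way, as a family of 13. Igf1 probes 2 and 3 followed Cish within groups, with r = 0.87 (permutation p = 1e-05, adjusted p = 6.5e-05) and r = 0.74 (permutation p = 0.0002, adjusted p = 0.000433), and rho was 0.88 and 0.70. Igf1 probe 2 kept 0.85 without the 2 farthest mice, with 0.84 and 0.93 within wash batches, and its r was 0.47 over fasted mice. The 3 further Socs2 probes had r between 0.68 and 0.73, the second Onecut1 probe 0.80 and the second Bcl6 probe -0.56. No relation passed for the 3 further Ghr probes (r between -0.04 and 0.04), the second Jak2 probe (0.09) or the second Stat5a probe (-0.34), and Stat5b probe 2 gave -0.45 (permutation p = 0.0262, adjusted p = 0.0426). These pairs were examined after the spread of Cish was seen.

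Of 20 other genes that signal beside this receptor or regulate it, 10 were higher and 4 lower in AAKO than CTRL fasted livers, where 49.3% of all genes were called (median log2 fold change 0.27, against -0.04 over all genes). Here and for the lists below, genes are ranked only among those called whose groups did not overlap. The 2 highest were Socs7 (0.96 ± 0.11, adjusted p = 2.09e-08), of the same inhibitor family, and the deacetylase gene Sirt1 (0.84 ± 0.12). The 2 lowest were the phosphatase gene Ptpn6 (-0.90 ± 0.12) and the kinase gene Tyk2 (-0.42 ± 0.11). After CL316243 6 were higher and 4 lower in AAKO (24.7% of all genes called). Of those without overlap the highest were the phosphatase gene Ptpn2 (1.17 ± 0.14, adjusted p = 3.62e-07) and Stat3 (0.62 ± 0.19), and the insulin receptor substrate gene Irs1 was lowest (-1.21 ± 0.21). In fed mice none of the 20 differed between genotypes by limma.

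Fasting raised 6 of the 20 and lowered 6 in CTRL, where 43.3% of all genes were called (median -0.11, against -0.02 over all genes). Among those called without overlap, the prolactin receptor gene Prlr had the highest estimate (1.86 ± 0.32, adjusted p = 1.79e-05), followed by Leprot (0.61 ± 0.12), whose product limits growth hormone receptor at the cell surface, while the adaptor gene Sh2b3 (-0.59 ± 0.10) and the glucocorticoid receptor gene Nr3c1 (-0.51 ± 0.08) were lowest. The fasting response of Prlr differed between genotypes (-2.02 ± 0.46, adjusted p = 0.000789), with an AAKO estimate of -0.16 ± 0.32. CL316243 raised 5 and lowered 2 in CTRL (23.3% of all genes called), with Prlr (1.96 ± 0.32) and Stat3 (1.27 ± 0.19) the highest without overlap.

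Of 8 partners of IGF1, binding proteins and receptors, 3 rose and 2 fell with fasting in CTRL (43.3% of all genes called) and 4 rose and 3 fell in AAKO (63.5%). Igfbp1, a binding protein that takes up circulating IGF1, rose by 4.79 ± 0.58 with fasting in CTRL (adjusted p = 5.57e-08). It was higher in AAKO than CTRL both when fasted (1.86 ± 0.58, adjusted p = 0.0088) and after CL316243 (2.32 ± 0.59, adjusted p = 0.00361). Its fed mean was also higher in AAKO, 5.40 ± 1.56 against 2.91 ± 1.51 in CTRL, though with this spread it was not called. Between fasted genotypes 3 of the 8 were higher and 1 lower (49.3% of all genes called): the IGF1 receptor gene Igf1r was 1.28 ± 0.12 higher in AAKO (adjusted p = 1.56e-10) and the clearance receptor gene Igf2r -1.88 ± 0.13 (adjusted p = 6.36e-13). After CL316243 2 were higher and 1 lower between genotypes (24.7%), Igf2r by -0.37 ± 0.13. Insr, the insulin receptor gene, was among the 2 raised by CL316243 in CTRL (0.47 ± 0.11), and 2 were lower (23.3% of all genes called).

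Growth hormone pulses set much of the sex bias of the next 2 lists. Of 18 male-biased genes measured, of 19 listed, 1 rose and 8 fell with fasting in CTRL, where 43.3% of all genes were called (median -0.39, against -0.02 over all genes). In AAKO 0 rose and 16 fell by limma, where 63.5% of all genes were called (median -0.76, against -0.09). Hsd3b5, a steroid dehydrogenase gene, had the lowest estimate in CTRL (-3.35 ± 0.24, adjusted p = 1.55e-12), then Selenbp2 (-1.67 ± 0.18). Elovl3, a fatty acid elongase gene, was the 1 that rose in CTRL (1.18 ± 0.25), and it fell in AAKO (-1.98 ± 0.25), with an interaction of -3.16 ± 0.35 (adjusted p = 3.86e-08). Between fasted genotypes 4 were higher and 7 lower in AAKO (49.3% of all genes called). Of those without overlap, Cyp7b1 (1.03 ± 0.24) was highest and Elovl3 (-3.12 ± 0.25) and Cib3 (-2.01 ± 0.51) were lowest. The Mup and several Cyp genes have near-identical copies, and their probes may read more than 1 of them.

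Of 18 female-biased genes measured, of 26 listed, 11 rose and 2 fell with fasting in CTRL (43.3% of all genes called; median 0.94, against -0.02 over all genes) and 9 rose and 3 fell in AAKO (63.5%; median 0.38, against -0.09). Acot3, an acyl-CoA thioesterase gene, and the cytochrome gene Cyp2b10 led in CTRL, rising by 4.03 ± 0.54 (adjusted p = 3.11e-07) and 4.02 ± 0.58 (adjusted p = 9.03e-07). In AAKO livers Cyp2b10 rose by 7.25 ± 0.58 and the female-enriched repressor gene Cux2 by 6.19 ± 0.60. For Cyp2b10 the fasted means were alike, 4.49 ± 1.24 in CTRL and 4.19 ± 0.62 in AAKO. Its fed means differed, 0.47 ± 0.23 and -3.06 ± 1.19. Cux2 was near background when fed, well above it on 4 of 6 CTRL and 3 of 6 AAKO arrays, so the size of its rise is uncertain. It entered the list through the fasted and AAKO CL316243 groups, where all 6 arrays were well above background. Because brightness in 1 group was enough, dim genes that rise could enter, and the counts and medians of this list may lean upward. Between fasted genotypes 5 were higher and 4 lower in AAKO (49.3% of all genes called). Of those without overlap, Cux2 was highest (3.56 ± 0.60, adjusted p = 9.06e-06) and Cyp3a16 (-1.05 ± 0.20) and Cyp3a41a (-0.78 ± 0.14) were lowest. These 2 Cyp3a genes read bright in these males, with group means from 5.32 to 6.38 and from 8.08 to 8.85. Their probes may read other Cyp genes, which was not tested. In fed mice 2 were lower in AAKO (0.0783% of all genes called), Cyp2b10 (-3.53 ± 0.58, adjusted p = 0.00404) and Cyp2b9 (-3.47 ± 0.64, adjusted p = 0.0145). The group means of these 2 genes ran in parallel, so their probes may read the same transcripts, which was not tested. Cyp2b9 was near background in AAKO fed mice (mean -4.37 ± 1.48), well above it on 4 of 6 arrays, so the size of its difference is uncertain. After CL316243 the male-biased list had 1 higher and 2 lower and the female-biased list 3 higher and 3 lower between genotypes (24.7% of all genes called), with Acot3 (-3.85 ± 0.54) and Cyp2a4 (-0.92 ± 0.32) the lowest without overlap. Among these 18 genes 2 were higher with CL316243 than fed in CTRL (23.3% of all genes called), Acot3 among them (2.70 ± 0.54). In that comparison 5 were lower, Cyp2b9 among them (-1.99 ± 0.64). Of the male-biased genes 1 was higher with CL316243 than fed in CTRL, Elovl3 (1.66 ± 0.25), and 1 was lower, Selenbp2 (-0.53 ± 0.18).

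**Figure D5:**
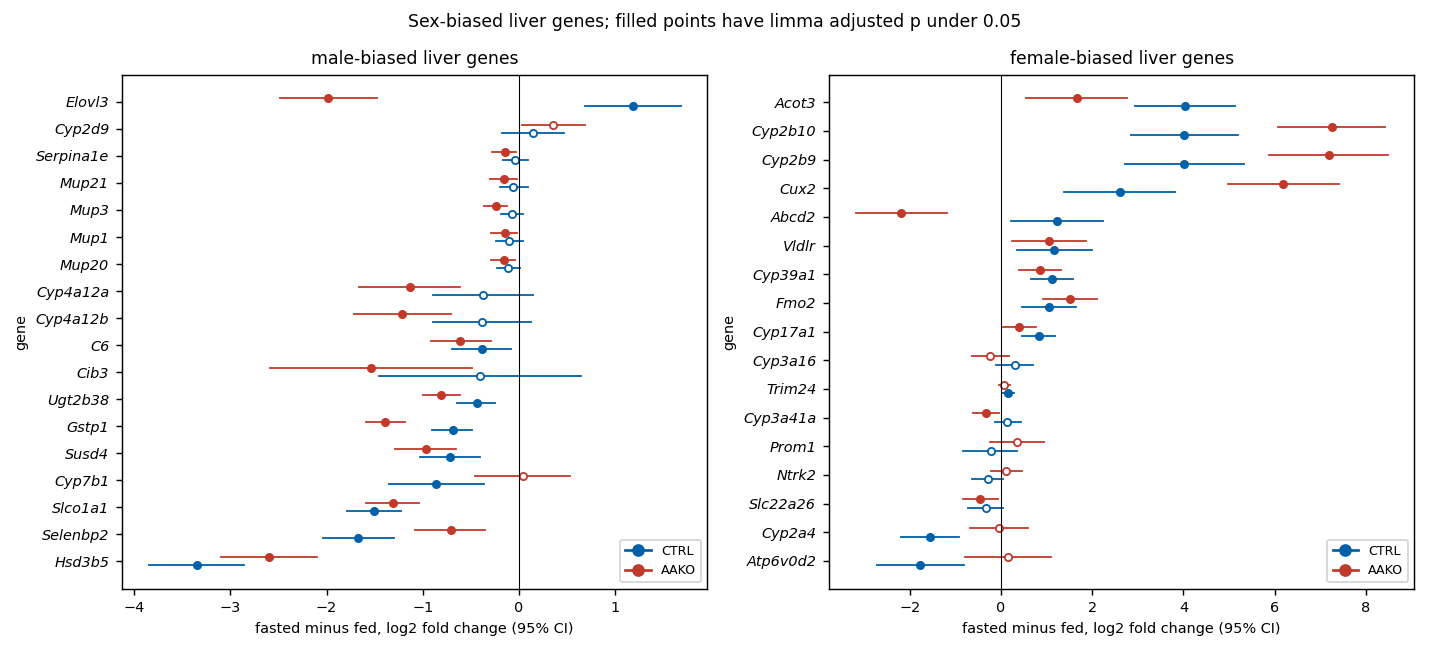
Log2 fold change of fasted against fed mice with its 95% confidence interval for the male-biased and female-biased liver genes measured, 1 female-biased gene left out, in CTRL (blue) and AAKO (red) males; filled points passed an adjusted p under 0.05. Male-biased genes lie mostly at or below 0, down to -3.35 for Hsd3b5 in CTRL, and Cyp2b10, Cyp2b9 and Cux2 lie farther to the right in AAKO than in CTRL. Cyp2b10 and Cyp2b9 were lower in AAKO than in CTRL when fed, and their probes may read the same transcripts. Cux2 was near background in fed mice, and Cyp2b9 in AAKO fed mice.

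The genes whose 6 group means were most like those of a member were found by the root mean square difference of group means after centring. For Socs2, whose group means spanned 5.07, they were Gadd45g (0.22), a growth arrest gene, Tmprss7 (0.29) and the transcript ENSMUST00000188378 (0.38). For Bcl6, with a span of 3.01, they were Adgrv1 (0.21), the transcript ENSMUST00000187329 (0.25) and Adra1b (0.27), which encodes an adrenergic receptor of hepatocytes. For Igf1, with a span of 0.29, they were Eif5a2, BY720219 and Supt16 (0.02 each), and with so small a span likeness says little.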

How the data were processed

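Liver RNA (TRIzol) of 36 male mice was labelled with Cy3 and hybridised to Agilent arrays, 1 per mouse, per the labels' protocols. Per the file headers, the deposited scanner files hold spot intensity from Feature Extraction, background-subtracted and detrended within each array but not scaled between arrays. They also mark each spot well above background, saturated or outlier with 0 or 1. The authors' value table holds log2 values, and its normalization is not given in the sources used here; within each group its columns hold the same sorted values. It served as an alternative.

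From the deposited intensity, outlier spots were dropped (0.127%), the log2 75th percentile of each array was subtracted, and spots of a probe were averaged. The brightest probe represented a gene, and genes well above background on at least 5 of 6 arrays of some group were kept. Names of 32994 probes came through accessions from RefSeq tables (GRCm38.p6, names only). limma 3.58.1 in R 4.3.3 fitted 6 group means and wash batch, with Benjamini-Hochberg adjustment over 24251 genes. On simulated data with 200 genes changed by 1 on the log2 scale between fasted AAKO and CTRL mice, 83% were called, with 5 false calls. The simulated noise was independent between genes, and far fewer genes were moved than the 49.3% called in that real comparison. These rates therefore need not hold for the real fit. No arrays were identical, the highest correlation of a pair being 0.994. Replicate numbers did not pair the mice (mean correlations of deviations from -0.04 to 0.04), and each of the 8 slides held at most 1 array per group. The labels do not say which mice shared a cage or litter, and p-values measure the spread between these samples. The number of arrays limits the precision.

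All 10 members are named. From each other list, the text names the 2 highest and 2 lowest called genes without overlap between groups, for each genotype comparison and each CTRL response; other values of those genes and of Elovl3 and Cux2 are given beside them. Values of 2 genes that this rule names are not reported here, though the counts and medians of their lists include them. For Igf1, Socs2 and Bcl6 it names the 3 genes with the most similar group means. Members and lists were chosen with earlier results of these data known. Alternatives were normexp background correction, quantile normalization, the authors' table, no filter, slide as a fixed or random factor, each wash batch alone, a replicate block, the mean of probes, and leaving out each mouse.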

Additional observations from a re-analysis of the deposited data

Results flagged for a closer look

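In 6 of 60 groups of a member's values 1 mouse lay far from the other 5 by Dixon's criterion, which chance gives in about 1 in 20 groups. Igf1 was low in CTRL fasted replicate 3 (6.97) and in AAKO CL316243 replicate 1 (6.78). AAKO CL316243 replicate 3 was low for both Socs2 (1.26) and Cish (0.32). Onecut1 was high in CTRL fed replicate 4 (5.12) and low in AAKO fasted replicate 2 (3.18).

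The genotype difference itself differed between conditions by limma's interaction term for 3 members. For Igfals it was lower in fasted than fed mice (-1.16) and lower after CL316243 than fed (-0.89). For Stat5b and Jak2 it was higher in fasted than CL316243-treated mice (0.39 and 0.43). Neither of these was called within a wash batch alone, and the Stat5b value also lost its call without the filter, when slides entered the fit, with the mean of probes and in 10 fits that left out 1 mouse.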

How the results depend on the processing

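Most member values kept their side of the threshold. Of 120 each, 118 did so with normexp, 117 with quantile normalization, 118 with the authors' table, 115 without the filter, 113 and 119 with slide as a fixed or random factor, 99 and 101 within wash batches 1 and 2, and 100 with the mean of probes, as did 1721 of 1800 values that left out 1 mouse. Counted among these are values called in neither fit whose sign changed. There were 4 with normexp, 6 each with quantile normalization and the authors' table, and 9 with slide fixed. Within wash batches 1 and 2 there were 13 and 20, with the mean of probes 13, and 51 when 1 mouse was left out. With the mean of probes 5 values called in either fit changed sign. They were Stat5a between genotypes after CL316243 (-0.34), for CL316243 in AAKO (-0.34) and their interaction (-0.33). The others were Igf1 for CL316243 in CTRL (1.2) and fasted against CL316243 in CTRL (-0.30). The probes of both genes disagree.

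Members called between fasted genotypes went from 5 to 3 within either wash batch. After CL316243 they went from 2 to 1 and 0 within batches and to 4 with the mean of probes. For fasting in CTRL they went from 5 to 2 within batch 1. For CL316243 they went in CTRL from 2 to 1 without the filter and with slide fixed, and to 0 and 1 within batches, and in AAKO from 4 to 0 within batch 2. Fasted against CL316243 in CTRL went from 4 to 1 within batch 1. The fasting interaction went from 1 to 2 with normexp, quantile, the authors' table, slide fixed, batch 1 and the replicate block, to 3 with the mean of probes and to 0 within batch 2. The CL316243 interaction went from 1 to 0 within both batches and to 2 with the mean of probes. The fasted against CL316243 interaction went from 2 to 1 without the filter, with slide fixed and with the mean of probes, and to 0 within both batches. A batch alone holds fewer arrays, and batch 2 held only replicates 3 and 4 of the AAKO CL316243 mice. For the other settings the cause was not tested. Leaving out 1 mouse gave 0 to 0 members between fed genotypes, 5 to 7 fasted and 1 to 3 after CL316243. It gave 4 to 6 for fasting in CTRL and 5 to 7 in AAKO, 0 to 2 and 4 to 5 for CL316243, 2 to 4 and 5 to 7 for fasted against CL316243, and 1 to 2, 1 to 1 and 1 to 2 for the interactions.

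With the replicate block 0, 5 and 2 members were called between genotypes when fed, fasted and given CL316243, 4 and 6 for fasting in CTRL and AAKO, and 2 and 4 for CL316243. The numbers do not pair the mice.

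Over all genes, calls between fed genotypes went from 19 to 1 and 0 within batches. They ran from 8 without CTRL fed replicate 5 to 36 without CTRL fed replicate 4, with 9 when CTRL fed replicate 1 or AAKO fed replicate 6 was left out and 10 for CTRL fed replicate 3 or AAKO fed replicate 1. Between fasted genotypes 7804 genes were called within batch 2 against 11963 in all, and after CL316243 3014 and 1562 within batches against 6002. Within batches CL316243 gave 2127 and 1602 in CTRL and 4717 and 2280 in AAKO, and the interactions 5149 and 3127 (fasting), 460 and 476 (CL316243) and 4895 and 3087 (fasted against CL316243); within batch 1 fasting gave 5920 and fasted against CL316243 4544 in CTRL. Members near background, such as Socs2 probe 4, have less certain values.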

Other observations

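Other genes followed Cish from mouse to mouse within groups, by the same correlation of deviations from the group mean over 36 mice, given as a description of genes chosen after their values were seen. All values of a mouse come from 1 array. Of 24220 genes 155 had r above 0.5 (0.64%) and 77 had r below -0.5 (0.318%). Among the highest were Arid5b (0.86), a chromatin-binding factor gene, the mitochondrial carrier gene Slc25a30 (0.84), Rgs3 (0.82), a regulator of G protein signalling, Ikzf4 (0.82), a zinc finger factor gene, and Myc (0.80). Onecut1 was 10th and Socs2 13th in that order. The lowest was Vasn (-0.68), followed by Bcl6 (-0.67), Iffo2 (-0.65) and Atxn1 (-0.65).

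Of the 20 regulators of the receptor 2 had r above 0.5, the inhibitor genes Socs3 (0.56) and Socs1 (0.51). Among the sex-biased genes r lay between -0.26 and 0.25 for the 18 male-biased genes (median -0.02). For the 18 female-biased genes it lay between -0.47 and 0.34 (median -0.04), with Cyp3a41a lowest, whose probe may read other Cyp genes. For the partners of IGF1 it lay between -0.22 and 0.23.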
